A study of Mus musculus with 2 samples.

Results

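The Nr4a family comprises 3 genes of the mouse, Nr4a1, Nr4a2 and Nr4a3, out of 55536 annotated genes measured in total RNA of the adrenal gland. Its members were selected by gene symbol, with the difference of Nr4a1 between the 2 animals already known, so levels and ratios of the members are given as a description and were not tested. The samples were adrenal glands of female mice of strain B6CASTF1/J at 2 months of age, F1 offspring of a cross between C57BL/6J and CAST, with no genotype change or treatment named in the labels. They form 1 group with 2 biological replicates, named animal 1 and animal 2 below, and 1 ribosomal-RNA-reduced, strand-preserving library was made for each from 300 ng of RNA with ERCC spike-in RNA. The labels disagree on the animals: both library descriptions carry one and the same female's number, while the biosample descriptions carry different numbers under a single donor entry. If both came from 1 animal, the spread below would be technical or from the tissue taken, and not between animals.

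The Nr4a proteins are orphan nuclear receptors. Their ligand-binding pockets are filled by bulky side chains, and they act without a known hormone, so their activity is set largely by how much of each protein is made. They bind DNA as single molecules, as pairs of Nr4a proteins, or, for Nr4a1 and Nr4a2, together with retinoid X receptors. Their genes are induced within minutes to hours by cAMP, calcium, growth factors and stress. In the adrenal cortex, corticotropin and angiotensin II induce them, and they can act on promoters of steroid-making enzymes. Nr4a2 is also known for its role in dopamine neurons, where it is needed for the genes of catecholamine synthesis.

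On mm10 the genes lie on different chromosomes. Nr4a1 (ENSMUSG00000023034.7) spans chr15:101254269-101274795 on the plus strand with 4 annotated transcripts. Nr4a2 (ENSMUSG00000026826.13) spans chr2:57106830-57124003 on the minus strand with 6. Nr4a3 (ENSMUSG00000028341.9) spans chr4:48045153-48086447 on the plus strand with 4. The coding regions of their leading transcripts hold 601 codons in Nr4a1, 598 in Nr4a2 and 627 in Nr4a3. When the coding bases were aligned in pairs, Nr4a1 and Nr4a2 matched at 67.9% of aligned bases, Nr4a1 and Nr4a3 at 66.6%, and Nr4a2 and Nr4a3 at 69.4%. The 60 coding bases that are most alike in all 3 genes are shown because reads from such a stretch come closest to being shared between members. They encode part of a zinc finger of the DNA-binding domain. Of the 60 bases, 47 are the same in all 3 genes, and capitals mark the 13 that differ. They are coding bases 835 to 894 of Nr4a1, 814 to 873 of Nr4a2 and 904 to 963 of Nr4a3.
Nr4a1: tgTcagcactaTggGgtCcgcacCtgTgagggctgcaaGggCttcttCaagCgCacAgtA
Nr4a2: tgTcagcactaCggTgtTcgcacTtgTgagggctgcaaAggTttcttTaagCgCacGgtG
Nr4a3: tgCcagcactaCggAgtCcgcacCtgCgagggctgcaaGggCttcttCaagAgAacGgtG
Differences stand throughout the stretch, and the gene counts of all 3 members were whole numbers in both libraries of the first quantification. In the second quantification only those of Nr4a1 were whole, at 5311 and 15802. There Nr4a2 had 793.4 and 842.7 counts and Nr4a3 6988.75 and 9686.92. Which reads were shared, and with which genes, was not tested.

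The bases upstream of each start site are shown because cAMP acts on these genes through CREB, a factor that binds the sequence TGACGTCA and its shorter core TGACG. The windows were taken from RefSeq (GRCm38.p6, 250 bases before to 50 after the annotated start), written 5′ to 3′ on the strand of the gene, and are printed only up to the first annotated exon. Capitals mark TGACG or its reverse complement CGTCA. For Nr4a1 they cover chr15:101266596-101266845 (plus strand), for Nr4a2 chr2:57124004-57124253 (minus strand), and for Nr4a3 chr4:48045055-48045152 (plus strand).
Nr4a1: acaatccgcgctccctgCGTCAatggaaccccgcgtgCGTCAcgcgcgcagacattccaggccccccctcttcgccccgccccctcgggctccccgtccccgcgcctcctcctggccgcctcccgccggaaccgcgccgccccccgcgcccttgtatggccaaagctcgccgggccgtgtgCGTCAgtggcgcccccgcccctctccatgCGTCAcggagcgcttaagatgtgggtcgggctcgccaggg
Nr4a2: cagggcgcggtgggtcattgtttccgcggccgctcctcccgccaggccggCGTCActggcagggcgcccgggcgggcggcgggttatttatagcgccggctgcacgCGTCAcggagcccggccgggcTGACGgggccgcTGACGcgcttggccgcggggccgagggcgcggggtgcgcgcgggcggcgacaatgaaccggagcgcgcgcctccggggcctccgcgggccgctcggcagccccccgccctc
Nr4a3: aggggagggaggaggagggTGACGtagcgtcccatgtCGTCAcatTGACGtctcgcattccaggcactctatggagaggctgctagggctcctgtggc
Each full window of 300 bases held 4 copies of TGACG on either strand. Those of Nr4a1 lay 233, 213, 69 and 40 bases before the start, and those of Nr4a2 at 200, 144, 123 and 111. In Nr4a3 they lay at 231, 213, 205 and 147, and the last of these falls inside an annotated exon and is not printed. These distances count from the RefSeq start of Nr4a3 at 48045305, which lies downstream of the start of its transcript Nr4a3-201 at 48045153. From that transcript's start the first 3 copies lie nearer, and the last lies downstream of it. Of 32851 RefSeq windows of this length, 20.8% held at least 1 copy and 76 (0.231%) held 4 or more. The windows are rich in G and C, at 72.3% for Nr4a1, 81.7% for Nr4a2 and 64.7% for Nr4a3. Among the 6218 windows with at least 64.7% G and C, 35 (0.563%) held 4 or more copies.

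None of the 3 windows held the whole element TGACGTCA, present in 1.79% of all windows, or AAAGGTCA, the element bound by a single Nr4a protein, present in 1.51%. The CArG box, which binds serum response factor, was in none of them and in 1.63% of all windows. One MEF2 element, the binding sequence of a calcium-regulated factor, lay 167 bases before the start of Nr4a2, and 3.19% of all windows held one. Among 37 other rapidly induced genes, 29 had a RefSeq window and 21 of these (72.4%) held TGACG in at least 1 of their windows. Counted in the same way, 6228 of 27025 genes with a window (23.0%) did. These shares were not matched for G and C content, and the genes were listed for known rapid induction, so their gap is a description. A match is a description of the letters and shows no binding.

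All 3 genes were detected in both libraries, and their order was the same in each. Levels are TPM, transcript abundances scaled for length and to a fixed sum, and are given for the first deposited quantification unless said otherwise. Nr4a1 stood at 64.8 TPM in animal 1 and 194 TPM in animal 2. Nr4a3 stood at 32.9 and 59.4 TPM, and Nr4a2 at 6.13 and 7.30 TPM. The means were 129 ± 91.4 TPM for Nr4a1, 46.2 ± 18.7 TPM for Nr4a3 and 6.72 ± 0.827 TPM for Nr4a2 (SD, n = 2). Animal 2 was the higher of the pair for each gene on this scale, and no value of one member overlapped the values of another. Nr4a1 exceeded Nr4a3 by 1.97-fold in animal 1 and 3.27-fold in animal 2. Nr4a3 exceeded Nr4a2 by 5.37-fold and 8.14-fold. By mean TPM, Nr4a1 ranked 416 among 22015 protein-coding genes of the nuclear genome, Nr4a3 ranked 1368 and Nr4a2 ranked 7468.

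The second deposited quantification gave the same order with higher values. There Nr4a1 stood at 97.7 and 253 TPM, Nr4a3 at 56.7 and 81.3 TPM, and Nr4a2 at 10.8 and 12.4 TPM. Nr4a1 exceeded Nr4a3 by 1.72-fold and 3.11-fold. By number of reads the order in animal 1 was different, with 6248 expected counts for Nr4a3 against 5265 for Nr4a1. Counts are not scaled for length, and the leading Nr4a3 transcript holds 5720 bases where that of Nr4a1 holds 2477. Nr4a2 had 707 expected counts in animal 1 and 728 in animal 2. Nr4a2 thus had the fewest reads of the 3 in both libraries, and its ratio has the widest counting interval.

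**Figure D1:**
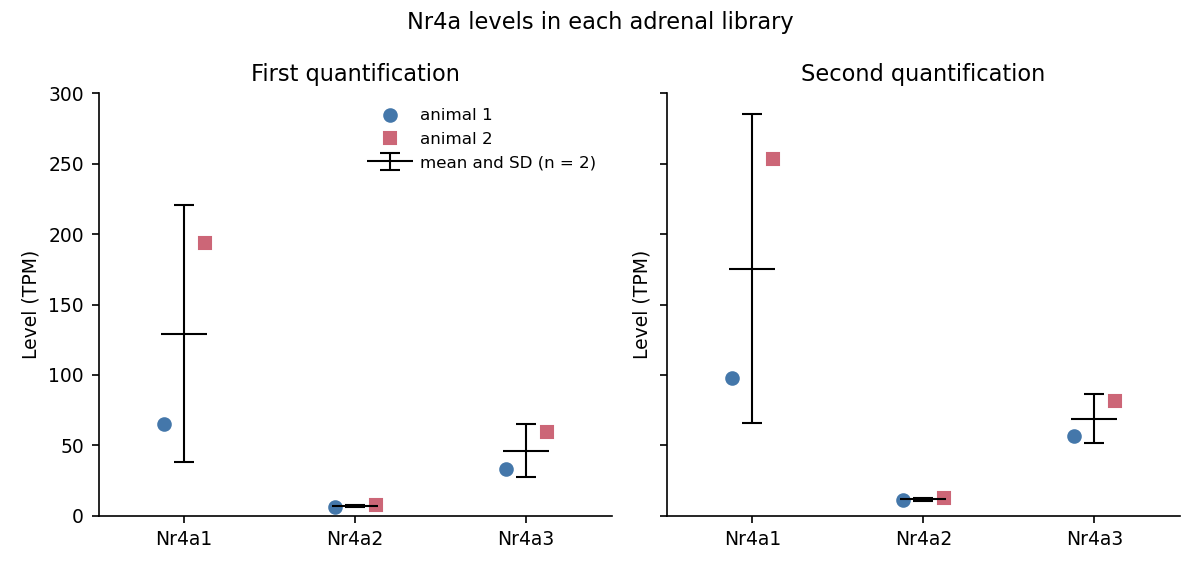
Level of each Nr4a gene in TPM (vertical axis, starting at 0) in animal 1 (circles) and animal 2 (squares), for the first and second deposited quantification. Horizontal marks and bars give the mean and SD (n = 2). Nr4a1 lay above Nr4a3, and Nr4a3 above Nr4a2, in each library and each quantification, and the gap between the animals was widest for Nr4a1, at 64.8 against 194 TPM in the first.

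The family's summed level was 103.9 TPM in animal 1 and 260.8 TPM in animal 2. Nr4a1 made up 62.4% of that sum in animal 1 and 74.4% in animal 2. The share of Nr4a3 was 31.7% in animal 1 and 22.8% in animal 2, and that of Nr4a2 5.90% and 2.80%. The family thus took a larger part of TPM in animal 2, and more of that part came from Nr4a1. In bulk tissue, fewer cells of a type and less RNA per cell cannot be told apart.

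Ratios between the animals were taken from expected counts scaled by the trimmed mean of M-values, with 95% intervals that cover counting error only and not the variation between animals. Reads of amplified libraries are not independent molecules. For Nr4a1 the 5265 counts of animal 1 and 15175 of animal 2 gave 151 and 430 CPM (scaled counts relative to library size). The ratio was 2.85 (95% interval 2.76 to 2.94), a log2 ratio of 1.51. For Nr4a3, 6248 and 8875 counts gave 179 and 252 CPM and a ratio of 1.41 (1.36 to 1.45), a log2 ratio of 0.49. For Nr4a2 the 20.3 and 20.6 CPM gave a ratio of 1.02 (0.917 to 1.13), a log2 ratio of 0.03. The interval of Nr4a2 includes a ratio of 1, and those of the other members do not. The 3 intervals do not overlap. They take reads as independent, and the Nr4a1 ratio was known when the family was selected, so this is a description.

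Nr4a1 alone among the members was more than 2-fold higher in animal 2. Of 12171 genes whose mean reached 100 counts, 0.583% were more than 2-fold higher in animal 2 and 0.789% more than 2-fold lower, with a median log2 ratio of -0.01. A ratio at least as high as that of Nr4a1 was found for 21 of these genes (0.173%). For Nr4a3 the number was 443 genes (3.64%), and for Nr4a2 43.2% of genes had a ratio at least as high. As the Nr4a1 ratio was among the values known when the family was selected, its place among all genes is a description. In the second quantification the ratios were 2.87 (2.78 to 2.96) for Nr4a1, 1.34 (1.30 to 1.38) for Nr4a3 and 1.02 for Nr4a2. The sign of the small Nr4a2 log2 ratio turned with the scaling, at -0.03 with total counts, -0.02 with counts of nuclear protein-coding genes and 0.23 with the spike-ins.

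**Figure D2:**
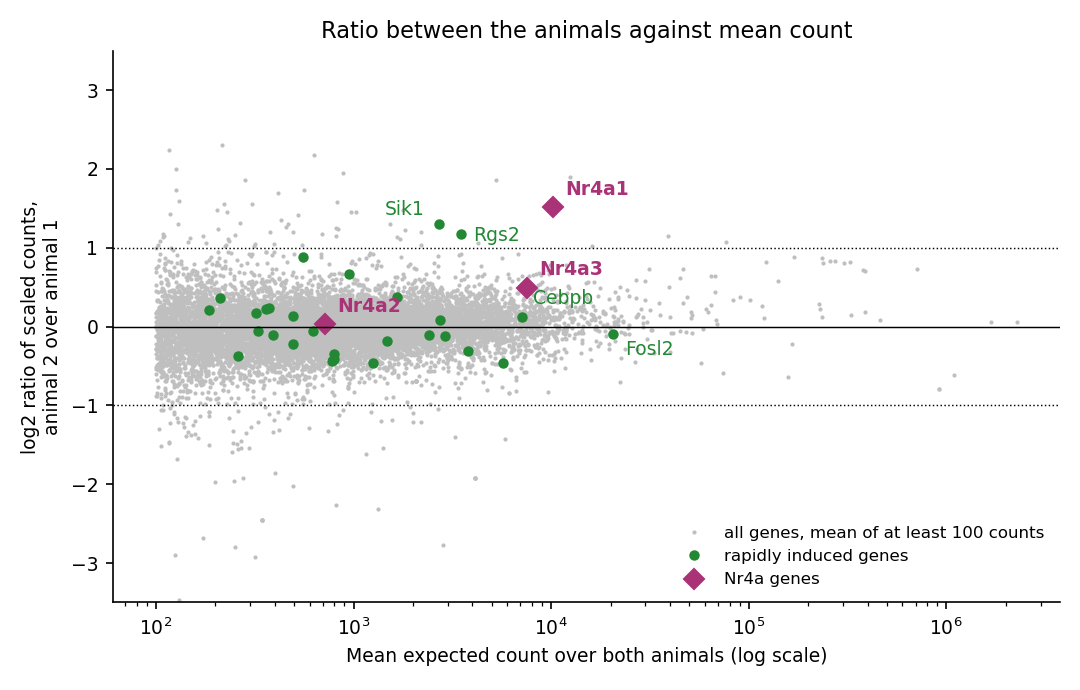
Log2 ratio of scaled counts, animal 2 over animal 1 (vertical axis), against the mean expected count over both animals (horizontal, log scale), for all genes with a mean of at least 100 counts (grey), rapidly induced genes (green circles) and the Nr4a genes (diamonds). Dotted lines mark 2-fold, and 12 genes lie outside the plotted range. Nr4a1 at 1.51 lies above the upper line with Sik1 and Rgs2, Nr4a3 lies at 0.49, and Nr4a2 sits at 0.03, within the grey band.

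The libraries differed in make-up. They held about 34203700 and 35959500 expected counts on annotated genes, of which 65.4% in animal 1 and 65.1% in animal 2 fell on nuclear protein-coding genes. The share of the 7SL RNA genes in TPM was 33.1% in animal 1 and 20.4% in animal 2, which leaves less of the fixed TPM sum for all other genes in animal 1. By counts, mitochondrial genes took 16.7% and 20.1%. The markers of the labelled tissue were present: 8 steroid-making cortex markers summed to 16678 and 19174 TPM, and 7 chromaffin markers to 1829 and 1494 TPM. Kidney markers summed to 20.1 and 0.460 TPM, and Kap, Slc34a1, Umod and Lrp2, 4 of the 5 with counts, were more than 2-fold lower in animal 2, as were 2.61% of all genes with a mean of at least 10 counts. Of 3 pancreas markers with counts, Ctrb1 and Pnlip were more than 2-fold lower, at 27 and 0 and at 26 and 1 counts. Of 6 liver markers, 5 were lower in animal 2 and Fgb more than 2-fold, with a median log2 ratio of -0.86.

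Set among the nuclear receptors of the mouse, Nr4a1 was second in level. Of 49 receptor genes, 37 reached a mean of 1 TPM. Nr5a1, the steroidogenic factor that defines steroid-making cells, was the first, at 258 ± 10.7 TPM (SD, n = 2). Both of its values lay above both values of Nr4a1. Nr4a3 was the third by mean and overlapped the next, the clock repressor Nr1d1, at 39.4 and 46.9 TPM. Thrb, a thyroid hormone receptor, followed at 33.3 and 45.6 TPM and overlapped Nr4a3 too. The place of Nr4a3 was not firm, since it ranked 7 in animal 1 and 3 in animal 2, and 5 by mean in the second quantification.

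Nr4a2 ranked 25, in a run of receptors with like levels. The liver X receptor Nr1h3 (8.98 and 7.67 TPM) and the retinoic acid receptor Rarg (6.84 and 7.29 TPM) stood just above it. Rara (6.09 and 5.90 TPM), another retinoic acid receptor, stood below. The values of Rarg overlapped those of Nr4a2, while both values of Nr1h3 were higher and both of Rara lower. Summed over receptors, the Nr4a genes held 12.96% of receptor TPM in animal 1 and 24.6% in animal 2, and 11.6% and 22.2% in the second quantification.

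**Figure D3:**
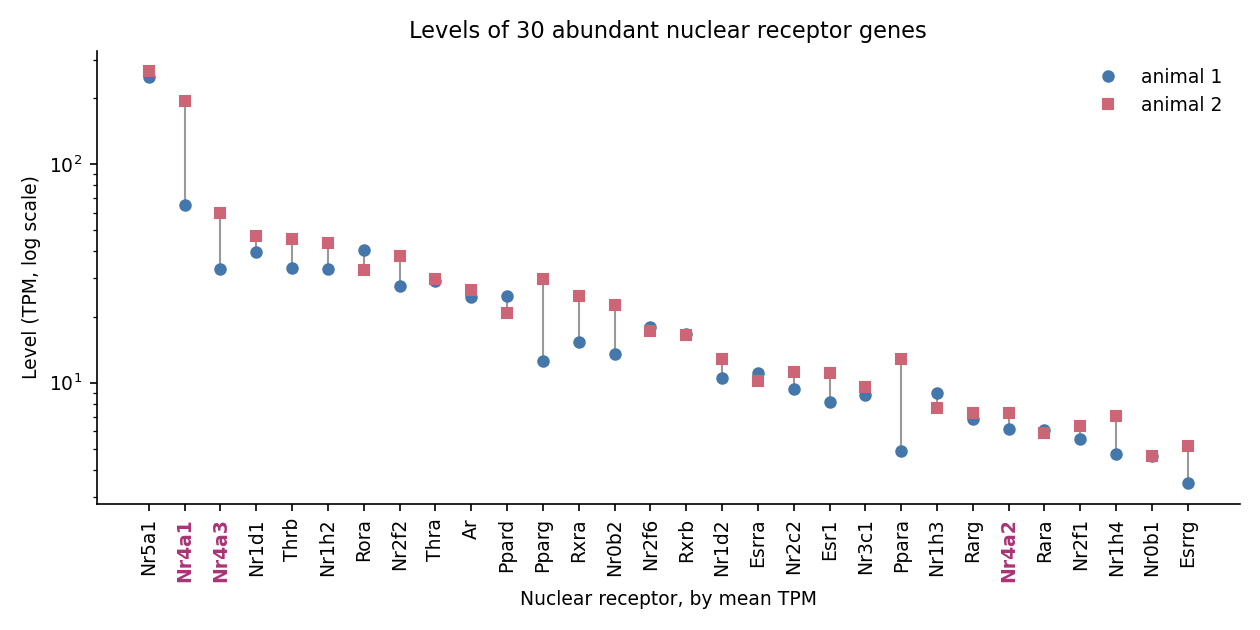
Level in TPM (vertical axis, log scale) of 30 abundant nuclear receptor genes, ordered by mean, in animal 1 (circles) and animal 2 (squares), with a line joining both values of a gene. Nr4a1 is the second and has the longest line of the 30, from 64.8 to 194 TPM, while both values of Nr5a1 lie close together above it.

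Of the 42 receptors whose mean reached 10 counts, 26 were higher and 16 lower in animal 2, and the median log2 ratio was 0.06. More than 2-fold higher were 2 of them, Nr4a1 and Ppara, and more than 2-fold lower were Hnf4a and Nr1i3, with ratios of 0.445 and 0.369 (Hnf4a was chosen after its values were seen). Hnf4a did not pass 2-fold in the second quantification or with spike-in scaling, with log2 ratios of -0.93 and -0.96. Both are known from liver, and Hnf4a from kidney, whose markers were also lower in animal 2, and the part of those tissues was not tested. Over all 17308 genes at that count, 2.67% were more than 2-fold higher and 2.61% more than 2-fold lower. Ppara, a fatty acid receptor that is abundant in brown fat and liver, stood at 4.85 and 12.9 TPM with a ratio of 2.38 (2.14 to 2.65). By ratio, Nr4a1 ranked 1 of the 42, Nr4a3 ranked 8 and Nr4a2 ranked 23. The retinoid X receptors, which pair with Nr4a1 and Nr4a2, had ratios far below that of Nr4a1. Rxra stood at 15.4 and 24.8 TPM with a count ratio of 1.01 (0.954 to 1.07), and Rxrb at 16.7 and 16.5 TPM with 0.930 (0.853 to 1.01). The scarcer Rxrg stood at 1.17 and 1.88 TPM with a log2 ratio of 0.59.

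Each member had more than 1 annotated transcript with reads, and the quantifications placed the reads of Nr4a1 differently. In the first, Nr4a1-201, which starts at position 101266846, held 95.6% of the gene's TPM in animal 1 and 98.0% in animal 2. In the second, that model held 0.000919% and 0.232%, and Nr4a1-202 held 98.0% and 98.5%. Nr4a1-202 starts 12577 bp further upstream, at position 101254269. Both models share 2351 bases and the whole coding region, with 126 bases found only in Nr4a1-201 and 202 only in Nr4a1-202. The gene's ratio between the animals was nearly the same in both, at 2.85 and 2.87, but these files do not settle which start was used. The Nr4a1 promoter shown above belongs to the start at 101266846, which held 0.999% and 1.32% of TPM in the second quantification. Such a change of leading transcript between the quantifications was found in 2701 of 10579 protein-coding genes with several transcripts and enough counts (25.5%). Nr4a1-203, a short coding fragment, and Nr4a1-204, a retained intron, held at most 1.93% in any library of either quantification.

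**Figure D4:**
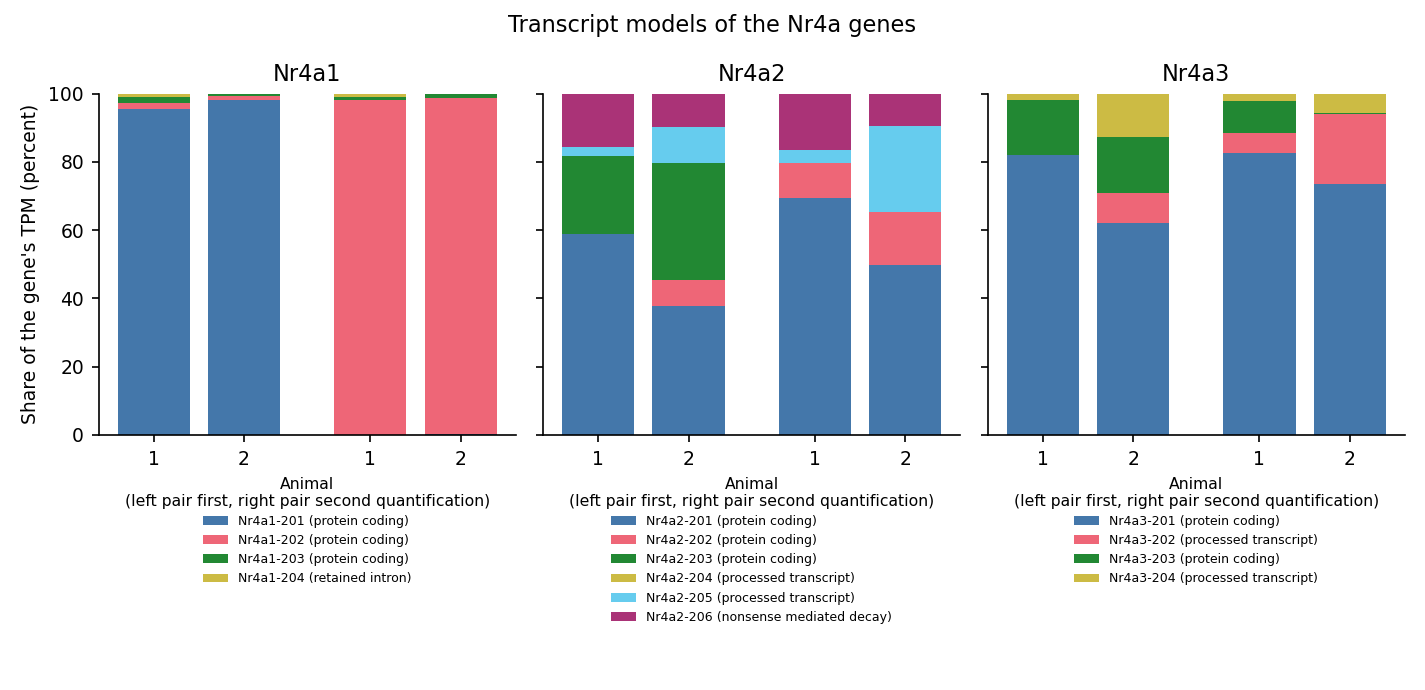
Share of each gene's TPM in each annotated transcript (stacked bars, percent, to 100), in animals 1 and 2, for the first (left pair) and second (right pair) quantification. Nr4a1 passes almost wholly from Nr4a1-201 to Nr4a1-202 between the quantifications, and in Nr4a3 the part outside Nr4a3-201 is larger in animal 2 than in animal 1 in both.

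Nr4a2 was spread over more models. Nr4a2-201, starting at position 57115038, held 59.0% of TPM in animal 1 and 37.6% in animal 2, and 69.4% and 49.9% in the second quantification. Nr4a2-203 starts 8965 bp upstream, at position 57124003, shares 3247 bases with it and encodes the same protein. It held 22.7% and 34.2% in the first quantification, and 0.000198% and 0.000179% in the second. Nr4a2-206, annotated as a target of nonsense-mediated decay from the same upstream start, held 15.6% and 9.76%, and 16.7% and 9.42% in the second. By start site, the upstream position held 38.3% and 44.0% in the first quantification and 16.7% and 9.42% in the second, so the order of the animals turned. The promoter shown above belongs to that upstream start. Nr4a2-202 held 0% and 7.69%, and 10.2% and 15.4% in the second, while Nr4a2-204 had 0 counts in both libraries.

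For Nr4a3 the quantifications agreed on the leading model. Nr4a3-201, the full-length coding transcript, held 81.9% in animal 1 and 62.2% in animal 2, and 82.6% and 73.4% in the second. Nr4a3-203, a coding model that starts 3961 bp downstream, held 16.2% and 16.6%, and 9.22% and 0.312% in the second. The models without a coding region, Nr4a3-202 and Nr4a3-204, together held 1.92% in animal 1 and 21.2% in animal 2. In the second quantification their share was 8.19% and 26.3%. Over 8952 genes the median difference in the share of such models between the animals was 0.540 percentage points. An excess in animal 2 at least as large as that of Nr4a3 was found in 4.51% of these genes, and in 8.11% in the second quantification. For Nr4a2 the share was 2.75% and 10.7%, an excess reached by 17.2% of genes. In the second quantification it was 3.73% and 25.2%, a larger excess than that of Nr4a3 there, reached by 5.63% of genes. For Nr4a1 it was 0.960% and 0.280%. The mean length of Nr4a3 transcripts weighted by TPM was 5522 bases in animal 1 and 4624 bases in animal 2. TPM divides by length, and the TPM of Nr4a3 was 1.80-fold higher in animal 2 where its scaled counts were 1.41-fold higher. The part of the transcript lengths in that gap was not tested.

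The Nr4a1 transcript ends in a 3′ untranslated region of 543 bases, that of Nr4a2 in 1326 bases and that of Nr4a3 in 3093 bases, each for its leading model in the first quantification. The pentamer ATTTA, the core of elements that speed mRNA decay, occurred 3 times in Nr4a1, 3 times in Nr4a2 and 5 times in Nr4a3. The median over 10618 genes was 1, with at least 3 copies in 35.5% of them and at least 5 in 19.8%. Per length, 5.08% of those genes had at least the density of Nr4a1, 30.9% that of Nr4a2 and 43.1% that of Nr4a3.

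Genes of the inputs known to induce the family were mostly near the same level in both animals. Of 19 genes on the path from corticotropin through cAMP to CREB, 1 was more than 2-fold higher in animal 2 and 0 more than 2-fold lower, with a median log2 ratio of 0.11, against 2.67% and 2.61% of all genes with at least 10 counts. That gene was Sik1, a kinase that is itself induced by cAMP and restrains CREB coactivators. It stood at 10.7 and 26.7 TPM, a ratio of 2.47 (2.33 to 2.62). Mc2r, the corticotropin receptor, stood at 83.7 TPM in animal 1 and 122 TPM in animal 2, with a ratio of 1.36 (1.31 to 1.42). Gnas, which encodes the stimulatory G protein, stood at 728 and 962 TPM, a log2 ratio of 0.30. The receptor accessory gene Mrap (377 and 404 TPM) had a log2 ratio of -0.00. Prkar1a, a regulatory subunit of protein kinase A, had a log2 ratio of -0.17, and the adenylate cyclase Adcy5 one of -0.35. Sik1, Mc2r and Gnas thus shared the direction of Nr4a1, and Sik1 alone of them passed 2-fold. Over the 19 genes, 10 were higher and 9 lower in animal 2. All 19 had a mean of at least 100 counts, where 0.583% of all genes were more than 2-fold higher and 0.789% more than 2-fold lower.

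Of 19 genes of the angiotensin, calcium and MEF2 input, 0 were more than 2-fold apart in either direction. Among all genes whose mean count reached 10, only 2.67% passed 2-fold upward and 2.61% downward, so 0 of 19 says little. In animal 2, 13 of the 19 were higher and 6 lower, and the median log2 ratio was 0.13. Agtr1a, the angiotensin II receptor of the zona glomerulosa, stood at 88.5 and 106 TPM. The kinase gene Camk2d stood at 28.7 and 40.1 TPM and the transcription factor gene Mef2d at 27.6 and 39.5 TPM, with log2 ratios of scaled counts of 0.04 and 0.14. The widest apart were the calcium-responsive factors Nfatc3, Nfatc1 and Nfatc2, at 0.42, 0.29 and 0.29.

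Other rapidly induced genes lay on both sides of 0. Of 37 listed, 36 had a mean of at least 10 counts. Of these, 17 were higher and 19 lower in animal 2, and the median log2 ratio was -0.06 (0.15 with spike-in scaling). More than 2-fold higher were 2 of the 36, Sik1 and Rgs2, and 0 were more than 2-fold lower, against 2.67% and 2.61% of all genes at that count. Sik1 and Rgs2 both had a mean of at least 100 counts, where the shares were 0.583% and 0.789%. Rgs2, a brake on G protein signalling, stood at 40.2 and 119 TPM, a ratio of 2.25 (2.14 to 2.37). Fos, the classical immediate early gene, stood at 2.04 and 1.08 TPM from 126 and 65 counts, a log2 ratio of -0.97. It was therefore low in both animals and lower in the one with more Nr4a1. Its relatives lay on both sides, and those given here were chosen after their values were seen. Junb, Fosb and Egr3 were higher in animal 2, with log2 ratios of 0.88, 0.67 and 0.95. Jun, Egr1 and Egr2 were lower, at -0.46, -0.35 and -0.44. The most abundant of the list were Cebpb (138 and 162 TPM), Fosl2 (103 and 120 TPM) and Crem (92.3 and 109 TPM), transcription factors of the bZIP class. Their log2 ratios of scaled counts were 0.13, -0.10 and -0.11, and with spike-in scaling 0.33, 0.11 and 0.09, so those of Fosl2 and Crem turned sign.

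**Figure D5:**
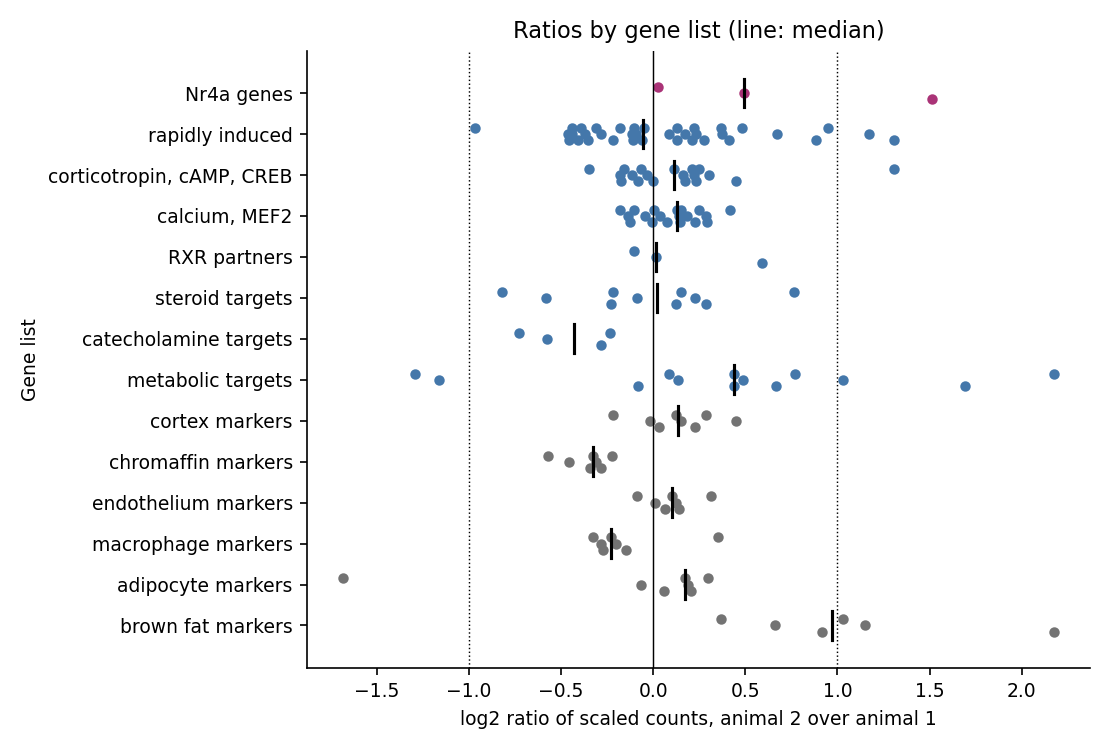
Log2 ratio of scaled counts, animal 2 over animal 1 (horizontal axis), for genes with a mean of at least 10 counts in each list (rows), with the median as a vertical line. Dotted lines mark 2-fold. The median of the rapidly induced genes lies at -0.06, that of the chromaffin markers at -0.33 and that of the brown fat markers at 0.97. That of the Nr4a genes lies at 0.49, and Nr4a1 is the highest of them at 1.51.

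Genes that Nr4a proteins are known to act on were listed by tissue. Of 10 steroid genes, 0 were more than 2-fold apart, and 5 were higher and 5 lower. Among all 17308 genes whose mean count reached 10, only 2.67% passed 2-fold upward and 2.61% downward, so 0 of 10 says little. The median log2 ratio was 0.02, against -0.04 with total counts and 0.22 with spike-in scaling. Star, which carries cholesterol into mitochondria, stood at 4122 and 4634 TPM with a log2 ratio of 0.15. Hsd3b1, 3-beta-hydroxysteroid dehydrogenase, had 0.23, and Cyp21a1, the 21-hydroxylase, 0.12. Cyp11b2, the aldosterone synthase, stood at 158 and 95.8 TPM, a log2 ratio of -0.82, and shares reads with Cyp11b1, so its value is uncertain. Akr1c18, which inactivates progesterone and is an Nr4a1 target in the ovary, had -0.58. Cyp17a1, which the mouse adrenal hardly expresses, had 19 and 33 counts. The steroid genes therefore lay on both sides of 0 while Nr4a1 was higher in animal 2.

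The catecholamine genes that need Nr4a2 in dopamine neurons were lower in animal 2, 4 of the 4 with enough counts. Their median log2 ratio was -0.43, and 0 were past 2-fold. Among all genes whose mean count reached 10, only 2.67% passed 2-fold upward and 2.61% downward, so 0 of 4 says little. Th, tyrosine hydroxylase, stood at 210 and 184 TPM, a ratio of 0.821 (0.800 to 0.843). Ddc, which makes dopamine, had a ratio of 0.670 (0.610 to 0.736), and Slc18a2, a vesicular monoamine transporter, 0.604 (0.536 to 0.681). The fourth, the growth factor receptor gene Ret, was chosen after its values were seen and had a log2 ratio of -0.23. The markers of chromaffin cells, the catecholamine-making cells of the medulla, were lower in animal 2 in 7 of 7 cases, with a median log2 ratio of -0.33, and Th is on both lists. Chgb, a granule protein, stood at 716 and 557 TPM, and Pnmt, which makes adrenaline, at 151 and 109 TPM. Nr4a2 stood at 20.3 and 20.6 CPM beside these. The part of the chromaffin cells in its level was not tested.

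Metabolic genes known to respond to Nr4a proteins in liver, muscle or brown fat were mostly higher in animal 2. Of 14 listed, 13 had enough counts, 10 were higher and 3 lower, and the median log2 ratio was 0.44. Of the 13, 3 were more than 2-fold higher and 2 more than 2-fold lower, against 2.67% and 2.61% of all genes at that count. Ppargc1a, a coactivator of mitochondrial genes, stood at 1.88 and 9.79 TPM, a ratio of 4.52 (3.92 to 5.25). G6pc, the glucose-6-phosphatase of glucose-making tissues, had 194 and 636 counts, a ratio of 3.24 (2.76 to 3.83). Ucp1, the uncoupling protein of brown fat, stood at 196 and 429 TPM, a ratio of 2.04 (1.99 to 2.09). Pdk4, a kinase that restrains glucose oxidation, stood at 82.9 and 152 TPM, and Lpin1, a lipid phosphatase, at 24.2 and 34.8 TPM. Fbp1, an enzyme of glucose synthesis, went the other way, at 2.42 and 1.31 TPM with a ratio of 0.408 (0.284 to 0.572). The other one more than 2-fold lower was Eno3, a muscle enolase chosen after its values were seen, at 13.2 and 6.34 TPM. Eno3 did not pass 2-fold with spike-in scaling (log2 ratio -0.96), nor Fbp1 by TPM (-0.88).

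Brown fat markers were higher in the same animal as Nr4a1. All 6 were higher in animal 2, with Ucp1, Elovl3 and Ppargc1a more than 2-fold higher and a median log2 ratio of 0.97 over the list. Of all 17308 genes at that count, 8281 were higher in animal 2 and 2.67% more than 2-fold higher. The number past 2-fold was 2 with total counts, with nuclear protein-coding counts and in the second quantification, where Ucp1 (0.94) and Elovl3 (0.93) fell short on the log2 scale and Cox8b (1.09) passed. The sum of the 6 markers was 653 TPM in animal 1 against 1270 TPM in animal 2. Besides Ucp1 and Ppargc1a, which stand on both lists, these were Cox8b (258 and 520 TPM), Elovl3 (8.73 and 20.6 TPM), Cidea (99.6 and 169 TPM) and Cox7a1 (88.7 and 122 TPM). The 7 general adipocyte markers summed to 2370 and 2777 TPM with a median log2 ratio of 0.17. Of these 7, 5 were higher and 2 lower in animal 2. Lep, at 195 and 61 counts, was more than 2-fold lower, with a ratio of 0.311 (0.228 to 0.415), as were 2.61% of all genes with a mean of at least 10 counts. Brown fat lies around the gland and is known to induce Nr4a1 and Ppargc1a on stimulation by cAMP. The part of brown fat in the Nr4a1 and Nr4a3 ratios was not tested. Red cell markers summed to 1133 and 1994 TPM, with a median log2 ratio of 0.60. Endothelium markers summed to 182 and 205 TPM. Macrophage markers summed to 152 and 146 TPM, but 6 of 7 were lower in animal 2 by scaled counts, with a median log2 ratio of -0.23. Lymphocyte markers summed to 0.86 and 0.75 TPM.

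The genes whose levels in both animals came nearest to those of each member were found by the distance in log2(TPM + 1) over the 2 libraries, among protein-coding genes with a mean of at least 100 counts. For Nr4a1 the nearest was Hspa1b, a heat shock protein gene, at 54.9 and 220 TPM and a distance of 0.30. It was followed by Ewsr1, Pdk4, Bag3 and Cltc, of which Bag3 encodes a cochaperone of heat shock proteins. Hspa1b had a count ratio of 3.74, Pdk4 1.59 and Bag3 1.64, while Ewsr1 had 1.12 and Cltc 1.09. The last 2 were near Nr4a1 in TPM without sharing its ratio of counts. Hspa1b has a near-identical copy in the genome, so its value is uncertain.

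For Nr4a3 the nearest genes were Ackr3, Dync1h1, Slc25a22, Hipk2 and Gm11273. Ackr3, a chemokine receptor, stood at 32.9 and 60.8 TPM with a count ratio of 1.70, and Hipk2, a nuclear kinase, had 1.47. For Nr4a2 they were Grasp, Galm, Gabpb2, Mkks and Aven, at distances of 0.0020 to 0.015. With 2 libraries each likeness rests on 2 points.

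Neighbours are the nearest protein-coding genes with a mean of at least 10 counts on each side of a member. They had ratios from 0.727 to 1.57. Grasp, a scaffold protein gene that is also nearest to Nr4a2 in level, lay 21513 bp from Nr4a1 and had a ratio of 1.11 (0.973 to 1.27). Atg101, an autophagy gene, lay 9477 bp away on the other side and had 0.978 (0.884 to 1.08). Both intervals include 1, and both lie wholly below that of Nr4a1. Beside Nr4a3, Stx17, a gene of vesicle fusion, had 1.14 (1.06 to 1.22) at 38468 bp, and Sec61b, of the protein translocation channel, had 0.727 (0.670 to 0.789) at 561911 bp. Beside Nr4a2, Gpd2, the mitochondrial glycerol phosphate dehydrogenase that is abundant in brown fat, had a ratio of 1.57 at 113632 bp. On the other side of Nr4a2 the nearest such gene, the potassium channel gene Kcnj3, lay 1508685 bp away with 28 and 22 counts. No annotated gene overlapped a member.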

How the data were processed

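Total RNA of adrenal gland was measured in 2 libraries, labelled as biological replicates 1 and 2 of 1 group. Per a text deposited with the tables, all of them use mm10 and GENCODE M21. Per the file headers, the first quantification gives an expected count per gene and transcript, TPM, and each transcript's percent of its gene's TPM, while the second gives an estimated count and TPM per transcript. The aligner, the versions and the settings used are not given in the sources used here. Deposited expected counts need not be whole and were rounded only for scaling. The authors' TPM sum to a constant over a file's rows, with the spike-ins among them. Deposited percent values were used as given, and shares in the second quantification were computed from its TPM. Reads were counted on C57BL/6J sequence, and the part of CAST alleles in the counts was not tested.

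Rows that name no gene or spike-in (26249, holding 1.68e-05% and 2.76e-06% of counts) were left out. Counts were scaled with edgeR 4.0.16 by its trimmed mean of M-values (factors 1.02 and 0.981), and ratios used a prior of 0.5 counts with exact Clopper-Pearson 95% intervals. The limit that a count of 0 allows, 3 counts, equals 0.0860 CPM for animal 1 and 0.0851 CPM for animal 2. The libraries were not duplicates (chi-square per degree of freedom 77.3 over 17308 genes). With 1 group no test was made and no p-value is given.

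The members and gene lists were chosen with earlier results of these data known. Named are the members and their transcripts, the 3 most abundant and the 3 genes farthest apart of each list described, brown fat markers, the 2 receptors above and below each member, the 5 most like genes and the nearest neighbours. Not every gene so chosen is printed, and 1 nuclear receptor is not reported here or plotted by name. Another 86 genes on scaffolds are not in the second quantification. Calculations were tested on simulated data. Alternatives were DESeq2 1.42.0 size factors, total, spike-in and nuclear protein-coding counts, TPM, the second quantification, a prior of 5 counts, other count filters, and each animal alone.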

Additional observations from a re-analysis of the deposited data

How the results depend on the processing

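Against the trimmed mean scaling, the log2 ratio of Nr4a1 (1.51) was 1.45 with total counts, 1.46 with counts of nuclear protein-coding genes, 1.72 with spike-in counts and 1.58 from TPM. That of Nr4a3 (0.49) was 0.43, 0.44, 0.70 and 0.85 in the same order, and 0.42 in the second quantification. That of Nr4a2 (0.03) was 0.23 with spike-in counts and 0.25 from TPM. The spike-ins moved the median log2 ratio of all genes from -0.01 to 0.19 and TPM moved it to 0.11, and the cause was not tested. The shift with the spike-ins is the same for every gene by construction. Within nuclear protein-coding genes alone, the mean level was 374 TPM for Nr4a1, 19.9 for Nr4a2 and 135 for Nr4a3, since fewer genes share the fixed sum. In the second quantification it was 11.6 TPM for Nr4a2 and 69.0 for Nr4a3, and Nr4a1-201 held 0.117% of its gene. With either animal alone, the level of Nr4a1 ranged from 64.8 to 194 TPM, that of Nr4a2 from 6.13 to 7.30 and that of Nr4a3 from 32.9 to 59.4. The share of the leading transcript ranged from 95.6% to 98.0%, 37.6% to 59.0% and 62.2% to 81.9%, and no ratio can be had from 1 animal. Of the rapidly induced genes, 4 (Sik1, Rgs2, Junb and Egr3) were more than 2-fold higher with spike-in counts, and 1 (Fos) was more than 2-fold lower with total counts, nuclear protein-coding counts or the second quantification. Over all genes, 138 were more than 2-fold higher with spike-in counts and 121 from TPM. At a mean of at least 10 counts, 462 were higher and 452 lower, and with no filter 3271 and 3029, since more genes with few counts entered. No paired analysis was possible because the labels give 1 group.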
